A study of Homo sapiens with 12 samples.

Results

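The 34 genes described here encode cytosolic and mitochondrial aminoacyl-tRNA synthetases. They were chosen by name: each is an entry of the raw count table whose symbol, or newer symbol, is on a fixed list of 34 synthetase genes. No measured value was a criterion for a gene, but the list was chosen with earlier results of these data known. The table held 27046 entries, all 34 genes were found in it under their older symbols (AARS for AARS1, EPRS for EPRS1 and so on), and all 34 passed the filter on low counts. Of these, 17 encode enzymes of the cytosol, 15 encode enzymes of the mitochondrion, and 2, GARS and KARS, encode both forms from 1 gene. GARS and KARS were counted with the cytosolic enzymes, which gives 19 genes.

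Aminoacyl-tRNA synthetases join each amino acid to its tRNA, the step that sets the genetic code before the ribosome reads it. Human cells keep separate sets for the cytosol, where nuclear messages are translated, and for the mitochondrial matrix, where the few proteins encoded by mitochondrial DNA are made. Several of the cytosolic enzymes sit together in the multi-tRNA synthetase complex. Many cytosolic synthetase genes are known targets of ATF4, the transcription factor made when the kinases of the integrated stress response phosphorylate eIF2 alpha, and this is much less described for the mitochondrial enzymes.

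RNA was sequenced in 4 groups of 3 libraries from BT549 cells, an established line derived from a human triple-negative breast tumour. Olaparib-treated knockdown cells and DMSO-treated knockdown cells carried siRNA pools against FOSL1 and JUN, which encode subunits of the AP-1 transcription factor. Olaparib-treated control cells and DMSO-treated control cells carried a non-targeting siRNA pool. Olaparib is an inhibitor of the PARP enzymes of DNA repair, DMSO is its solvent, and treatment lasted 48 h. Its dose is not known here. The model is 1 cell line with transient knockdown, all cells were transfected, and olaparib was compared with its solvent only.

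Nothing in the labels says that the libraries of a group came from separate cultures, so p-values measure only the spread between these libraries, which may be technical. In bulk RNA, fewer cells of a kind and less RNA per cell cannot be told apart. Library totals ran from 13762783 to 39714918 counts. Levels are given as CPM, counts scaled to library size with TMM factors. The targeted genes were low in the libraries labelled as knockdown: FOSL1 had 21.7, 22.3 and 19.2 CPM in olaparib-treated knockdown cells and 29.0, 27.5 and 23.8 CPM in DMSO-treated knockdown cells, against 124, 136 and 117 CPM in olaparib-treated control cells and 74.9, 71.4 and 68.5 CPM in DMSO-treated control cells. JUN had 49.8, 40.7 and 35.9 CPM in olaparib-treated knockdown cells and 56.2, 62.3 and 68.8 CPM in DMSO-treated knockdown cells, against 157, 172 and 161 CPM in olaparib-treated control cells and 161, 174 and 155 CPM in DMSO-treated control cells. For both genes the knockdown and control libraries did not overlap. All 6 mesenchymal markers checked (VIM, FN1, CDH2, ZEB1, SPARC and AXL) were above 1 CPM in every library. Of 7 luminal or epithelial markers 4 stayed below 1 CPM in every library (ESR1, PGR, FOXA1 and EPCAM), with PGR at 0. The other luminal or epithelial markers were ERBB3 at 1.98 to 4.20 CPM and KRT8 at 1.18 to 2.09 CPM, above 1 CPM in every library, and CDH1 at 0.209 to 1.48 CPM. The 4 endothelial markers were below 1 CPM, 3 of them at 0. Of the haematopoietic markers, HBB was at 0, PTPRC and CD3E were below 1 CPM, and CD68 was above it. CD68 had 24.1, 22.0 and 20.3 CPM in olaparib-treated knockdown cells and 19.7, 20.6 and 15.5 CPM in DMSO-treated knockdown cells, against 60.3, 53.4 and 51.7 CPM in olaparib-treated control cells and 39.8, 37.6 and 37.4 CPM in DMSO-treated control cells, and its part in the results was not tested.

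The promoters were searched for 3 short motifs because the knockdown targets AP-1 subunits and because many synthetase genes are described ATF4 targets. RefSeq promoter windows of GRCh38.p14, from 250 bases before to 50 bases after each annotated start, were at hand for 30 of the 34 genes, 16 cytosolic or dual and 14 mitochondrial; AARS2, DARS, LARS and YARS were not matched. The core of the CARE element bound by ATF4 and C/EBP partners was searched as TGATGNAA on both strands and was found in 7 of the 16 cytosolic or dual windows and in 1 of the 14 mitochondrial windows, against 3.62% of all 35116 windows. The AP-1 element, searched as TGANTCA on both strands, was found in none of the 30 windows and in 7.71% of all windows. The palindromic E-box CACGTG was found in 4 member windows (MARS2, IARS, CARS2 and EARS2) and in 7.26% of all windows. A match is a description of the letters and not a binding site, and a missing match says only that the letters are not in that window. The CARE matches are shown because they set the cytosolic windows beside the mitochondrial ones. Each sequence runs 5′ to 3′ on the gene's own strand, with 10 bases on each side in lower case and the matched letters, in either orientation, in capitals.
TARS (chr5:33440957-33440984, plus strand): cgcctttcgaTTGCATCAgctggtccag
GARS (chr7:30594835-30594862, plus strand): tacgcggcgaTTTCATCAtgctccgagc
IARS (chr9:92293693-92293720, minus strand): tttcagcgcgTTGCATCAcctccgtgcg
CARS (chr11:3057408-3057435, minus strand): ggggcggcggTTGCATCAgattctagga
MARS (chr12:57488054-57488081, plus strand): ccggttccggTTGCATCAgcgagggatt
AARS (chr16:70289676-70289703, minus strand): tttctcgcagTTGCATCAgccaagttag
NARS (chr18:57621805-57621832, minus strand): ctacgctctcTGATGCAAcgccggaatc
YARS2 (chr12:32756077-32756104, minus strand): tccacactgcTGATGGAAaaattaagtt
The same 8 letters, TTGCATCA or its reverse complement, appear in TARS, IARS, CARS, MARS, AARS and NARS, while GARS and YARS2 differ at the position written N.

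Per length, the cytosolic enzymes were the more abundant set. In DMSO-treated control cells the median level was 88.2 RPKM (CPM per kilobase of the authors' gene length) over the 19 cytosolic and dual genes, with a range of 0.466 to 199.6 RPKM, and 9.51 RPKM over the 15 mitochondrial genes, with a range of 2.71 to 62.2 RPKM. GARS, the glycyl enzyme, was the most abundant at 199.6 ± 5.51 RPKM (SD, n = 3), followed by AARS at 149 ± 7.79 RPKM, YARS at 137 ± 4.81 RPKM and IARS at 135 ± 3.36 RPKM. The SD ranges of AARS and YARS overlapped, as did those of YARS and IARS. IARS2 was the highest mitochondrial gene at 62.2 ± 0.795 RPKM and MARS2 the lowest at 2.71 ± 0.0193 RPKM. Among 16 pairs of enzymes for the same amino acid, the cytosolic gene was higher per length in 15, from 1.98 times RARS2 for RARS to 30.6 times AARS2 for AARS. EPRS, which charges both glutamate and proline, was paired with EARS2 and PARS2, and FARS2 with both subunits of the cytosolic phenylalanyl enzyme.

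The exception was cysteine: CARS stood at 0.466 ± 0.0378 RPKM and CARS2 at 24.5 ± 0.313 RPKM. CARS had only 23 to 87 counts per library, so its fold changes carry the largest errors among the members, and it passed no test below. The rule by which reads were assigned to CARS is not known, and its level is uncertain.

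**Figure D1:**
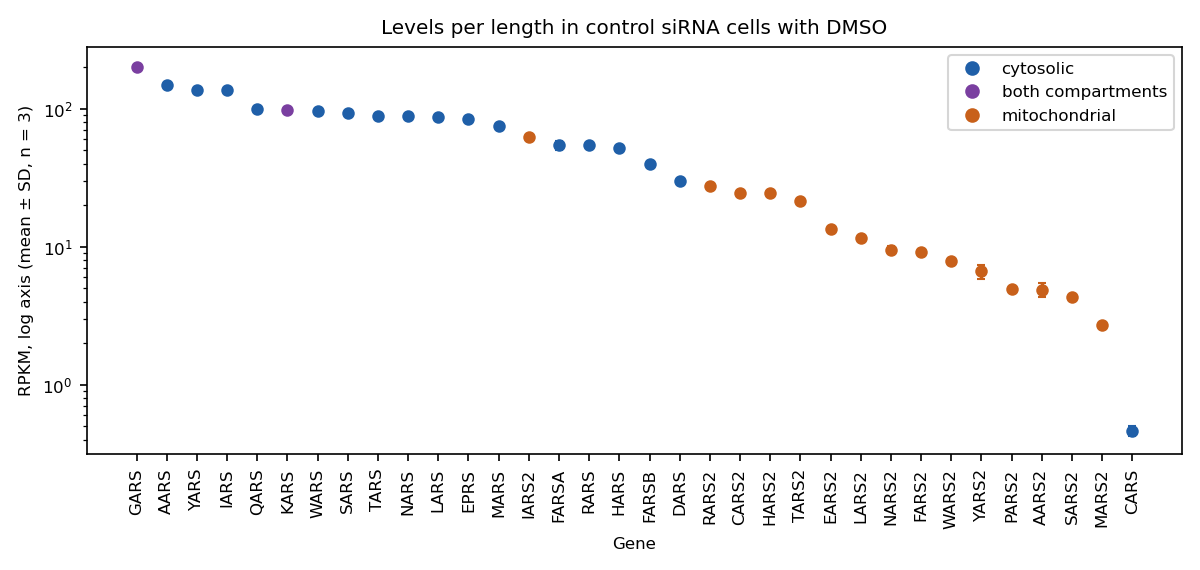
RPKM (log axis) of the 34 synthetase genes in DMSO-treated control cells, in order of level; points are means and bars SDs over 3 libraries, coloured by compartment. The mitochondrial genes lie between 2.71 and 62.2 RPKM, below most cytosolic genes, and CARS lies lowest at 0.466 RPKM.

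Across the groups the average of the cytosolic set ranged more widely than that of the mitochondrial set. The average log2 CPM over the 19 cytosolic and dual genes, set to 0 in DMSO-treated control cells, was -0.0050 ± 0.037 in olaparib-treated knockdown cells, -0.21 ± 0.025 in DMSO-treated knockdown cells and 0.067 ± 0.026 in olaparib-treated control cells (SD, n = 3 each). Each library of DMSO-treated knockdown cells was below every library of the other groups, at -0.18, -0.21 and -0.23. The same average over the 15 mitochondrial genes was -0.089 ± 0.022 in olaparib-treated knockdown cells, -0.046 ± 0.015 in DMSO-treated knockdown cells and -0.066 ± 0.036 in olaparib-treated control cells. Summed CPM of the cytosolic set was 5507 ± 145 in olaparib-treated knockdown cells, 4653 ± 134 in DMSO-treated knockdown cells, 5847 ± 70.0 in olaparib-treated control cells and 5457 ± 126 in DMSO-treated control cells. These averages are descriptions and were not tested.

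**Figure D2:**
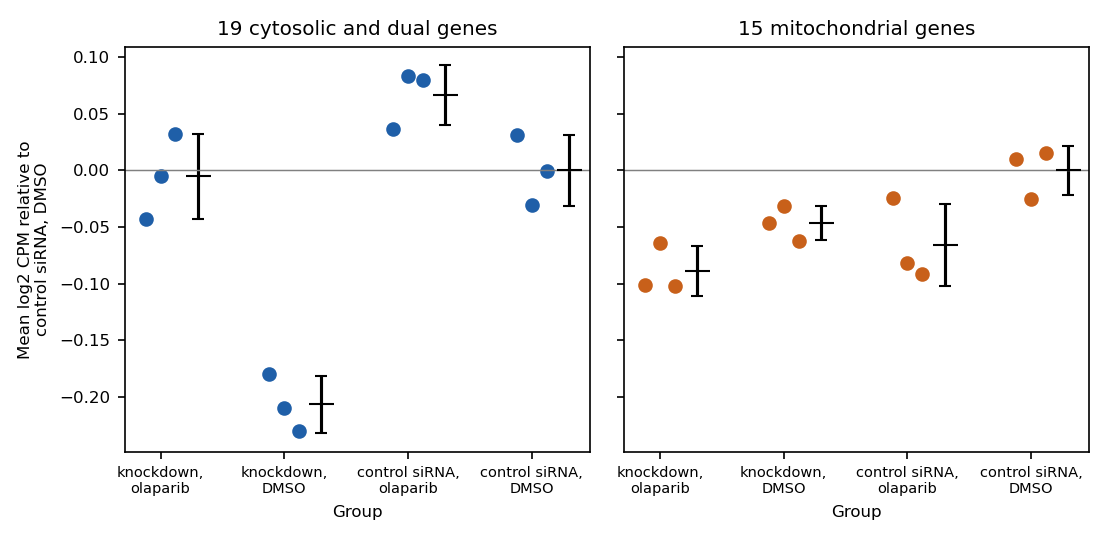
Average log2 CPM relative to DMSO-treated control cells for the 19 cytosolic and dual genes (left) and the 15 mitochondrial genes (right); dots are libraries, and the black mark and bar give the mean and SD of 3 libraries. The 3 libraries of DMSO-treated knockdown cells form the lowest cytosolic group, between -0.18 and -0.23, while the mitochondrial averages stay between -0.10 and 0.015.

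**Figure D3:**
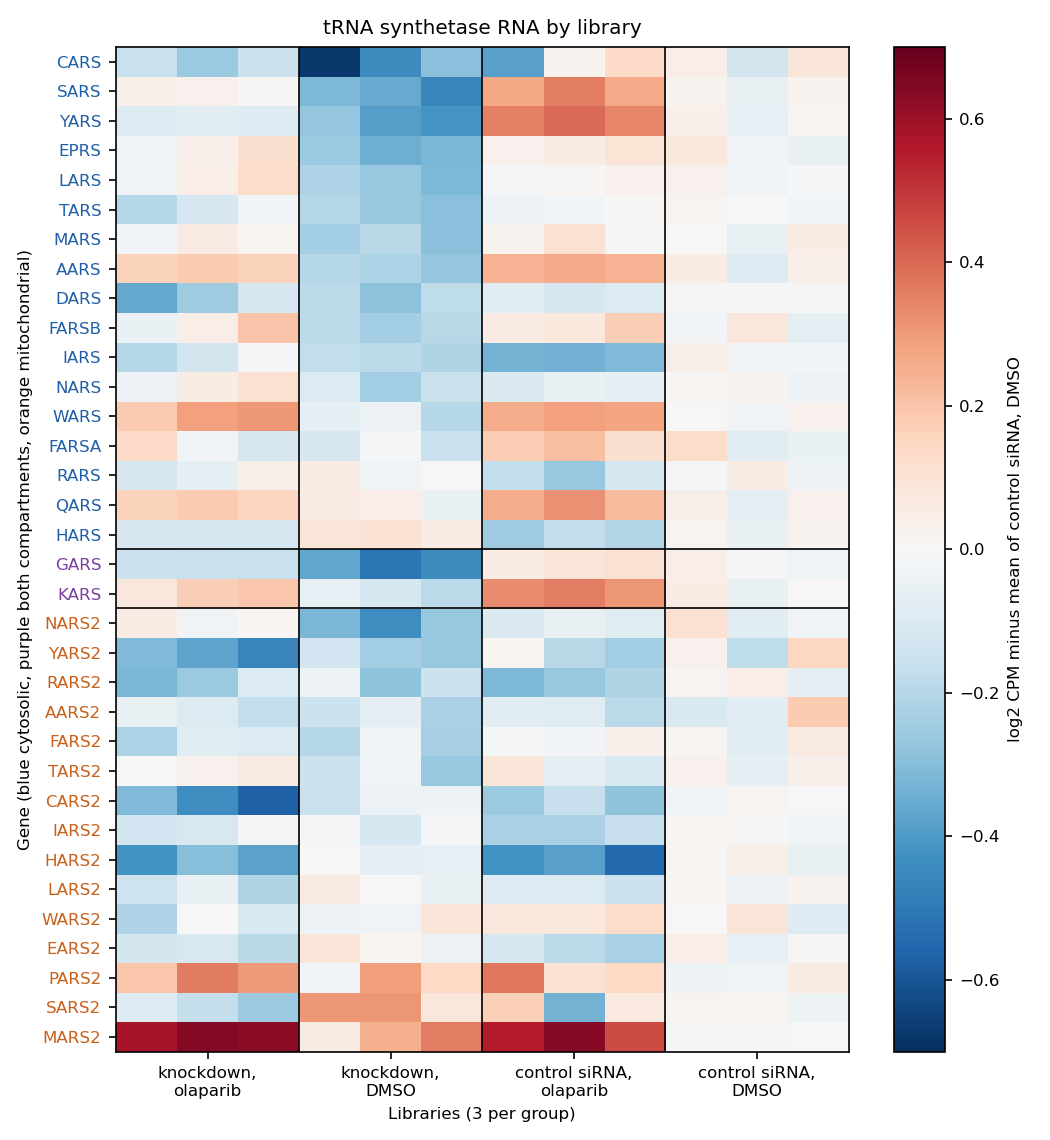
Log2 CPM of each gene in each of the 12 libraries minus its mean in DMSO-treated control cells, on a colour scale of -0.7 to 0.7; within each compartment, genes run in order of their fold change with knockdown in DMSO. In DMSO-treated knockdown cells 16 of 19 cytosolic and dual genes have a fold change below 0 (blue), among them GARS, SARS, YARS and EPRS, and so have 9 of 15 mitochondrial genes.

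Knockdown of FOSL1 and JUN without drug lowered most cytosolic synthetase RNAs. In knockdown against DMSO-treated control cells, 12 of 19 cytosolic and dual genes fell and none rose, with a median log2 fold change of -0.22, and 1 of 15 mitochondrial genes fell, NARS2, with a median of -0.05. Over all 12118 genes tested with edgeR's quasi-likelihood test, 29.9% were called at an adjusted p below 0.05, 15.2% as lower and 14.7% as higher, and the median was 0.0037. The 12 that fell were GARS, SARS, YARS, EPRS, LARS, TARS, MARS, AARS, DARS, FARSB, IARS and NARS, by 0.16 to 0.44 on the log2 scale. Most mitochondrial genes had lower levels and larger SEs than most cytosolic genes, so counts of calls are not alike between the classes. YARS2 at -0.22 (SE 0.099) was not called, while NARS at -0.16 (SE 0.050) was. Below 0 were 16 of 19 cytosolic and dual genes and 9 of 15 mitochondrial genes.

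GARS, which makes both the cytosolic and the mitochondrial glycyl enzyme, had 399, 363 and 378 CPM in DMSO-treated knockdown cells, against 531, 510.2 and 503 CPM in DMSO-treated control cells. The groups did not overlap, and GARS fell by 0.44 on the log2 scale (SE 0.044, adjusted p = 2.98e-07). SARS, the seryl enzyme, had 371, 362 and 337 CPM in DMSO-treated knockdown cells, against 469, 446 and 470.5 CPM in DMSO-treated control cells, a log2 fold change of -0.37 (SE 0.047, adjusted p = 4.40e-06). YARS, the tyrosyl enzyme, had 355, 328 and 321 CPM in DMSO-treated knockdown cells, against 439, 411 and 435 CPM in DMSO-treated control cells (log2 fold change -0.36, SE 0.046, adjusted p = 6.81e-06). All knockdown libraries lay below all control libraries for both genes. EPRS, the glutamyl-prolyl enzyme of the multi-tRNA synthetase complex, had 349.7, 329 and 335 CPM in DMSO-treated knockdown cells, against 441, 410.4 and 404 CPM in DMSO-treated control cells (log2 fold change -0.31, SE 0.049, adjusted p = 7.74e-05). NARS2, the mitochondrial asparaginyl enzyme, had 19.1, 17.7 and 19.9 CPM in DMSO-treated knockdown cells, against 25.8, 22.6 and 23.5 CPM in DMSO-treated control cells (log2 fold change -0.34, SE 0.074, adjusted p = 0.00185). Its groups did not overlap either.

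The 12 cytosolic and dual genes described as ATF4 targets (AARS, CARS, EPRS, GARS, IARS, LARS, MARS, NARS, SARS, TARS, WARS and YARS) were all below 0 with knockdown in DMSO, and 10 of them fell, with a median log2 fold change of -0.26. Of the other 7 cytosolic and dual genes, 2 fell (DARS and FARSB) and the median was -0.10. In the multi-tRNA synthetase complex 5 of 8 members fell, with a median of -0.20, and 7 of the 11 cytosolic and dual genes outside it fell, with a median of -0.23. KARS, the lysyl enzyme of both compartments, was not called at -0.12 (adjusted p = 0.0618), nor was WARS, the interferon-inducible tryptophanyl enzyme, at -0.10 (adjusted p = 0.130). Single libraries decided calls at the margin: NARS was not called without control with DMSO 1 (adjusted p up to 0.0941 over the 12 libraries left out), control with DMSO 2 or knockdown with DMSO 2, FARSB not without control with DMSO 2 (0.0863), and KARS was called without control with DMSO 2, knockdown with DMSO 1 or knockdown with olaparib 1. The count of mitochondrial genes that fell became 2 without control with DMSO 2, knockdown with DMSO 1 or knockdown with DMSO 2, and 1 mitochondrial gene was called higher without knockdown with DMSO 1.

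**Figure D4:**
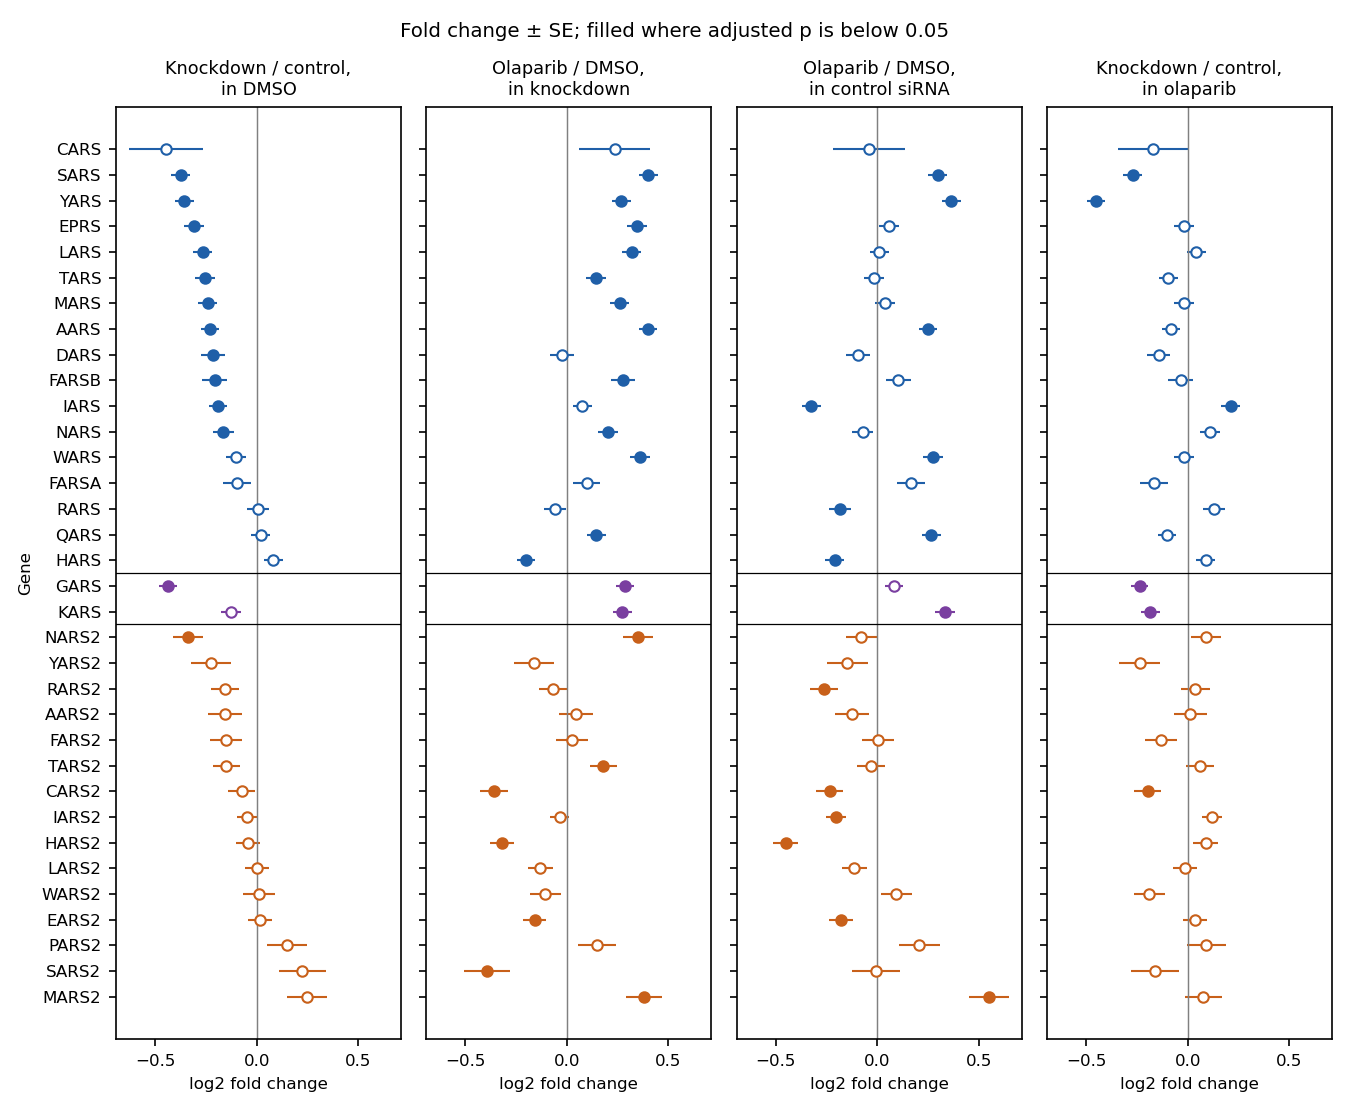
Log2 fold change (horizontal) of each gene in 4 comparisons, with genes ordered as in the plot of values by library; points are estimates, bars are SEs, and filled points passed an adjusted p of 0.05. With knockdown in DMSO 12 cytosolic and dual genes and NARS2 are filled on the left of 0, and with olaparib in knockdown cells 13 cytosolic and dual genes are filled on the right.

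Olaparib raised most of the cytosolic set when FOSL1 and JUN were knocked down. In olaparib-treated knockdown cells against DMSO-treated knockdown cells, 13 of 19 cytosolic and dual genes rose and 1, HARS, fell, with a median log2 fold change of 0.26. Among the mitochondrial genes 3 rose (MARS2, NARS2 and TARS2) and 4 fell (SARS2, CARS2, HARS2 and EARS2), with a median of -0.07. Over all genes tested 48% were called, 24.1% as higher and 23.9% as lower, and the median was -0.0088. The libraries of DMSO-treated knockdown cells are the reference here and were the tested group for knockdown in DMSO. A shift in those libraries alone would give a fall there and a rise here, for any gene. The fall and the rise are therefore not separate results, and the part of such a shift was not tested. The difference between the arms given below uses those libraries as well.

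SARS had 475, 472 and 464 CPM in olaparib-treated knockdown cells, against 371, 362 and 337 CPM in DMSO-treated knockdown cells, and rose by 0.40 on the log2 scale (SE 0.047, adjusted p = 1.21e-06). AARS, the alanyl enzyme, had 557, 566 and 555 CPM in olaparib-treated knockdown cells, against 434, 427 and 413 CPM in DMSO-treated knockdown cells (log2 fold change 0.40, SE 0.044, adjusted p = 6.68e-07). The groups were apart for both genes. WARS had 324, 349 and 352 CPM in olaparib-treated knockdown cells, against 273, 278 and 249 CPM in DMSO-treated knockdown cells (log2 fold change 0.36, SE 0.049, adjusted p = 7.76e-06). EPRS had 409, 429 and 452 CPM in olaparib-treated knockdown cells, against 349.7, 329 and 335 CPM in DMSO-treated knockdown cells (log2 fold change 0.35, SE 0.049, adjusted p = 1.17e-05). Every olaparib library of these 2 genes was above every DMSO library. GARS rose by 0.29 (adjusted p = 3.44e-05) and KARS by 0.27 (adjusted p = 0.000151).

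MARS2, the mitochondrial methionyl enzyme, had 12.5, 13.1 and 13.0 CPM in olaparib-treated knockdown cells, against 8.73, 9.93 and 10.8 CPM in DMSO-treated knockdown cells (log2 fold change 0.38, SE 0.090, adjusted p = 0.00200). SARS2, the mitochondrial seryl enzyme, had 8.64, 8.19 and 7.68 CPM in olaparib-treated knockdown cells, against 11.4, 11.4 and 9.72 CPM in DMSO-treated knockdown cells, and fell by 0.39 on the log2 scale (SE 0.11, adjusted p = 0.00754). Serine had a cytosolic gene that rose and a mitochondrial gene that fell, and so had glutamate, with EPRS at 0.35 and EARS2 at -0.16. For none of these genes did the groups overlap. All 12 described ATF4 targets were above 0 and 10 of them rose, with a median of 0.28; the other 7 cytosolic and dual genes held 3 that rose, HARS that fell, and a median of 0.10. In the complex 5 of 8 rose (median 0.20), and outside it 8 of 11 rose (median 0.27). The calls of EARS2, TARS, TARS2 and QARS did not hold without some libraries: EARS2 without knockdown with DMSO 1 or 2 or knockdown with olaparib 2 or 3 (adjusted p up to 0.105), TARS without knockdown with DMSO 2 or 3 or knockdown with olaparib 2 or 3 (up to 0.115), TARS2 without knockdown with DMSO 1 or 3 or knockdown with olaparib 2 or 3 (up to 0.186), and QARS without knockdown with DMSO 3 or knockdown with olaparib 2 (up to 0.0755). EARS2, TARS and TARS2 were also not called when only the libraries of these groups were fitted (adjusted p 0.0665, 0.0695 and 0.0737), and EARS2 not without the filter on low counts (0.0927).

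In control cells the response to olaparib was split. In olaparib-treated control cells against DMSO-treated control cells, 6 of 19 cytosolic and dual genes rose (YARS, KARS, SARS, WARS, QARS and AARS) and 3 fell (IARS, HARS and RARS), with a median log2 fold change of 0.06. Of the mitochondrial genes 1 rose (MARS2) and 5 fell (HARS2, RARS2, CARS2, IARS2 and EARS2), with a median of -0.11. Over all genes tested 46.8% were called, 23.6% as higher and 23.2% as lower, with a median of -0.0076. Of the 12 described ATF4 targets 8 were above 0, 4 rose and IARS fell, with a median of 0.05. The other 7 cytosolic and dual genes held 2 that rose and 2 that fell, with a higher median of 0.10. In the complex 2 of 8 rose and 2 fell (median 0.02), and outside it 4 of 11 rose and 1 fell (median 0.10).

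YARS had 547, 564 and 542 CPM in olaparib-treated control cells, against 439, 411 and 435 CPM in DMSO-treated control cells, and rose by 0.36 on the log2 scale (SE 0.046, adjusted p = 3.44e-06). KARS had 271, 276 and 267 CPM in olaparib-treated control cells, against 223, 208 and 215 CPM in DMSO-treated control cells (log2 fold change 0.33, SE 0.049, adjusted p = 2.15e-05). Neither pair of groups overlapped. SARS had 557, 592 and 555 CPM in olaparib-treated control cells, against 469, 446 and 470.5 CPM in DMSO-treated control cells (log2 fold change 0.30, SE 0.046, adjusted p = 3.89e-05). WARS had 342, 349 and 346 CPM in olaparib-treated control cells, against 285, 280.5 and 291 CPM in DMSO-treated control cells (log2 fold change 0.27, adjusted p = 0.000149). GARS, by contrast, was not called, at 533, 548 and 554 CPM in olaparib-treated control cells and 531, 510.2 and 503 CPM in DMSO-treated control cells (log2 fold change 0.08, adjusted p = 0.127).

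IARS, the isoleucyl enzyme of the complex, went the other way. It had 506, 504 and 514 CPM in olaparib-treated control cells, against 655, 627 and 628 CPM in DMSO-treated control cells, and fell by 0.33 on the log2 scale (SE 0.046, adjusted p = 1.46e-05). All olaparib libraries were below all DMSO libraries. MARS2 had 12.3, 13.1 and 11.5 CPM in olaparib-treated control cells, against 8.29, 8.40 and 8.38 CPM in DMSO-treated control cells, the largest rise among the members (log2 fold change 0.55, SE 0.098, adjusted p = 0.000163). HARS2, the mitochondrial histidyl enzyme, had 47.4, 49.0 and 43.6 CPM in olaparib-treated control cells, against 64.2, 65.5 and 61.3 CPM in DMSO-treated control cells, and fell by 0.45 on the log2 scale (SE 0.061, adjusted p = 8.17e-06). For both mitochondrial genes the groups were apart. The call of RARS (-0.18) did not hold without control with DMSO 2 or control with olaparib 2 (adjusted p up to 0.0847), and that of EARS2 (-0.18) not without control with DMSO 1 or 3 or control with olaparib 2 or 3 (up to 0.0875) nor without the filter on low counts (0.0640).

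Across both olaparib comparisons, which have no library in common, 6 cytosolic and dual genes and MARS2 rose in both, and HARS, HARS2, CARS2 and EARS2 fell in both. Of all tested genes, 16.3% rose in both and 15.2% fell in both. HARS and HARS2 are neighbours that start 85 bases apart on opposite strands, and the stretch between them is shown because both genes fell in both arms. The sequence is the plus strand of GRCh38.p14, 5′ to 3′, from RefSeq, with the 86 bases from the HARS start to the HARS2 start in capitals and 20 bases on each side in lower case.
HARS and HARS2 (chr5:140691350-140691475, plus strand): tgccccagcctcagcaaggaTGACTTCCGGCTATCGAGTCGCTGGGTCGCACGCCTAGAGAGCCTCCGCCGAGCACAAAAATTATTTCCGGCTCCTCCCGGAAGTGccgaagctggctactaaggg
HARS, the cytosolic histidyl enzyme, had 110.1, 110.1 and 109.5 CPM in olaparib-treated knockdown cells, against 127, 128 and 124 CPM in DMSO-treated knockdown cells, and fell by 0.20 on the log2 scale (SE 0.046, adjusted p = 0.00142). In control cells HARS had 101, 106 and 104 CPM with olaparib, against 121, 116 and 121 CPM with DMSO (log2 fold change -0.21, SE 0.047, adjusted p = 0.00125). HARS2 had 47.5, 51.7 and 49.0 CPM in olaparib-treated knockdown cells, against 63.9, 60.9 and 61.1 CPM in DMSO-treated knockdown cells (log2 fold change -0.32, SE 0.060, adjusted p = 0.000224). None of these groups overlapped, and neither gene was called with knockdown in either condition.

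The response to olaparib differed between the arms for 5 members. The interaction, the olaparib effect in knockdown cells minus that in control cells, was above 0 and past the threshold for IARS, LARS, EPRS, NARS and NARS2 and below 0 for none; 4 of 19 cytosolic and dual genes were called, with a median difference of 0.15, and 1 of 15 mitochondrial genes, with a median of 0.02. Over all genes tested 5.69% were called, 2.84% as higher and 2.85% as lower, with a median of -0.0039. All 4 cytosolic genes are described ATF4 targets, and 3 of them (IARS, LARS and EPRS) belong to the complex.

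IARS differed the most among the cytosolic genes, by 0.40 on the log2 scale (SE 0.065, adjusted p = 0.00170). It had 554, 582 and 630.2 CPM in olaparib-treated knockdown cells and 564, 560.4 and 550.4 CPM in DMSO-treated knockdown cells, groups that overlapped (log2 fold change 0.08, adjusted p = 0.184), while in control cells it fell as given above. LARS, the leucyl enzyme, had 419, 441 and 466 CPM in olaparib-treated knockdown cells and 366, 355 and 342 CPM in DMSO-treated knockdown cells, against 423, 429 and 435 CPM in olaparib-treated control cells and 435, 420.1 and 424 CPM in DMSO-treated control cells. Its difference was 0.31 (SE 0.065, adjusted p = 0.00938): it rose by 0.32 in knockdown cells and had a log2 fold change of 0.01 in control cells. EPRS differed by 0.29 (SE 0.069, adjusted p = 0.0187), with 426, 433 and 447 CPM in olaparib-treated control cells and 441, 410.4 and 404 CPM in DMSO-treated control cells, which overlap. NARS, the asparaginyl enzyme, had 246, 262 and 272 CPM in olaparib-treated knockdown cells and 237, 214 and 227 CPM in DMSO-treated knockdown cells, against 236, 244 and 242 CPM in olaparib-treated control cells and 255, 257 and 246 CPM in DMSO-treated control cells (difference 0.28, SE 0.070, adjusted p = 0.0265). NARS2 had 24.8, 23.6 and 24.2 CPM in olaparib-treated knockdown cells and 19.1, 17.7 and 19.9 CPM in DMSO-treated knockdown cells, against 22.3, 23.1 and 22.6 CPM in olaparib-treated control cells and 25.8, 22.6 and 23.5 CPM in DMSO-treated control cells (difference 0.43, SE 0.10, adjusted p = 0.0210). Both asparaginyl genes had olaparib values above DMSO values in knockdown cells and not in control cells. GARS, WARS and KARS were not called, at 0.20 (adjusted p = 0.0633), 0.08 (0.494) and -0.06 (0.653).

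IARS and LARS stayed called whichever of the 12 libraries was left out, with adjusted p up to 0.00980 and 0.0381. EPRS was not called without control with DMSO 1, control with olaparib 1, control with olaparib 2 or knockdown with olaparib 2 (0.0575, 0.0691, 0.0596 and 0.0522), and without each of these 4 the cytosolic count was 2. NARS was not called without 8 of the 12 (control with DMSO 1 and 2, control with olaparib 1, 2 and 3, knockdown with DMSO 2, knockdown with olaparib 2 and 3; adjusted p up to 0.0877), and NARS2 not without control with DMSO 1, control with olaparib 1 or knockdown with DMSO 2 (up to 0.0618). GARS was called without knockdown with DMSO 1 (0.0274) and by DESeq2 (0.0329).

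**Figure D5:**
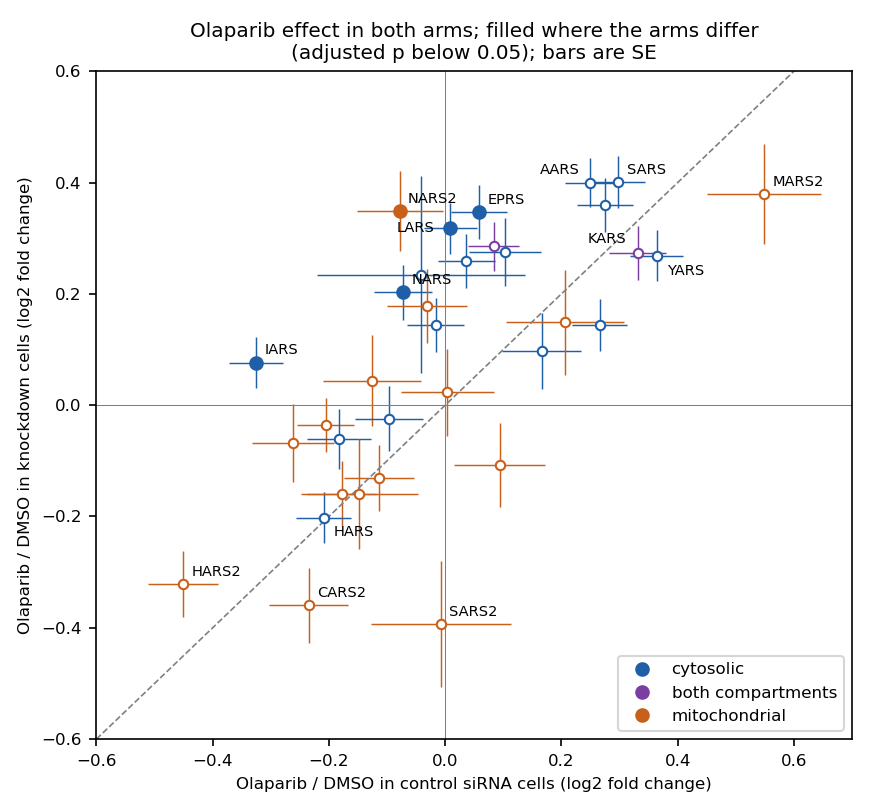
Log2 fold change with olaparib in control cells (horizontal) and in knockdown cells (vertical) for the 34 genes, with SE bars; the dashed line marks equal effects, and filled points are genes whose effects differed at an adjusted p below 0.05. IARS, LARS, EPRS, NARS and NARS2 lie above the line, while HARS, HARS2 and CARS2 lie at the lower left and MARS2 at the right.

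With olaparib present, 6 members were called between knockdown and control cells. In olaparib-treated knockdown cells against olaparib-treated control cells, 4 of 19 cytosolic and dual genes fell (YARS, SARS, GARS and KARS) and IARS rose, with a median log2 fold change of -0.08, and 1 of 15 mitochondrial genes fell (CARS2), with a median of 0.04. Of the 12 described ATF4 targets 3 fell and 1 rose (median -0.05). Of the other 7 cytosolic and dual genes 1 fell and none rose (median -0.10). Over all genes tested 38.3% were called, 19% as higher and 19.3% as lower, with a median of 0.0082. Each of these libraries also stands in another comparison above.

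YARS had 400.1, 406 and 402 CPM in olaparib-treated knockdown cells, against 547, 564 and 542 CPM in olaparib-treated control cells, and fell by 0.45 on the log2 scale (SE 0.046, adjusted p = 2.36e-07). SARS had 475, 472 and 464 CPM in olaparib-treated knockdown cells, against 557, 592 and 555 CPM in olaparib-treated control cells (log2 fold change -0.27, SE 0.046, adjusted p = 0.000126). GARS had 463, 462 and 463 CPM in olaparib-treated knockdown cells, against 533, 548 and 554 CPM in olaparib-treated control cells (log2 fold change -0.24, SE 0.044, adjusted p = 0.000288). For these genes, which fell with knockdown in DMSO too, no library of one group reached the other. KARS had 227, 243 and 246 CPM in olaparib-treated knockdown cells, against 271, 276 and 267 CPM in olaparib-treated control cells (log2 fold change -0.18, adjusted p = 0.00572). IARS had 554, 582 and 630.2 CPM in olaparib-treated knockdown cells, against 506, 504 and 514 CPM in olaparib-treated control cells (log2 fold change 0.21, SE 0.046, adjusted p = 0.00129). Over all 12 libraries no other member was called higher with knockdown in either condition.

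CARS2, the mitochondrial cysteinyl enzyme, had 37.7, 34.5 and 31.5 CPM in olaparib-treated knockdown cells, against 39.0, 41.8 and 38.5 CPM in olaparib-treated control cells (log2 fold change -0.20, SE 0.069, adjusted p = 0.0286). Its groups did not overlap, but it was not called without control with olaparib 1 or 2 or knockdown with olaparib 2 or 3 (adjusted p up to 0.123), nor when only these groups were fitted (0.0529). Without knockdown with olaparib 1 the number of cytosolic and dual genes that rose was 3, and 1 mitochondrial gene was called higher without that library, knockdown with DMSO 2 or knockdown with DMSO 3. WARS was not called (log2 fold change -0.02, adjusted p = 0.809).

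Set side by side for the same amino acid, the cytosolic log2 fold change was above the mitochondrial one in 13 of 16 pairs with olaparib in knockdown cells (median difference 0.23) and in 13 of 16 with olaparib in control cells (0.14). With knockdown it was above in 4 of 16 pairs in DMSO (median difference -0.12) and in 7 of 16 in olaparib (-0.02). The pairs at the ends were serine, where SARS minus SARS2 was 0.79 with olaparib in knockdown cells, and methionine, where MARS minus MARS2 was -0.51 with olaparib in control cells. EPRS and FARS2 each enter 2 pairs, and no test was made over pairs.

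Of the 34 genes, 26 were called in at least 1 of the 4 comparisons of groups, against 75% of all tested genes, so the share is near that of all genes. The 8 never called were CARS and FARSA of the cytosol and AARS2, FARS2, LARS2, PARS2, WARS2 and YARS2 of the mitochondrion. Some members overlap other genes in RefSeq: CARS2 with ING1, EARS2 with GGA2, FARS2 with LYRM4, YARS with S100PBP and MARS with ARHGAP9 and DDIT3, and CARS, DARS, FARS2, FARSA, LARS2, NARS2 and WARS2 with antisense RNAs. The strand setting of the counting is not known, so reads of these neighbours cannot be told apart and the values of these members are uncertain. DDIT3 rose by 1.06 on the log2 scale with olaparib in control cells, where MARS had a log2 fold change of 0.04 and was not called. With knockdown in DMSO DDIT3 fell by 0.80 and MARS by 0.24. With olaparib in knockdown cells both rose, MARS by 0.26. With knockdown in olaparib DDIT3 fell by 0.90 and MARS was not called (-0.02). The part of DDIT3 reads in the MARS values was not tested.

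The other genes of the pathway were read from 5 lists. Their counts that rose or fell are to be read against the shares of all tested genes called in the same direction. With olaparib these were 24.1% higher and 23.9% lower in knockdown cells, and 23.6% higher and 23.2% lower in control cells. With knockdown they were 14.7% higher and 15.2% lower in DMSO, and 19% higher and 19.3% lower in olaparib. For the interaction they were 2.84% higher and 2.85% lower. In the list of ATF4 and the eIF2 alpha kinases with their partners, 8 of 15 fell and GCN1 rose with knockdown in DMSO (median log2 fold change -0.38), 11 rose with olaparib in knockdown cells (0.32) and 9 in control cells (0.25), and 7 fell with knockdown in olaparib (-0.04). The interaction was called for 1 of the 15, above 0 (median 0.04), and for 0 without control with DMSO 2 or control with olaparib 1. DDIT3, the stress-induced factor CHOP, fell by 0.80 with knockdown in DMSO (adjusted p = 4.00e-09) and rose by 0.96 with olaparib in knockdown cells (adjusted p = 2.88e-10). PPP1R15A, which recruits the phosphatase of eIF2 alpha, fell by 0.66 and rose by 0.91 in the same comparisons. Both comparisons use the libraries of DMSO-treated knockdown cells, so the fall and the rise of a gene are not separate results. ATF4 itself, named for its role after its values were seen, had 351, 339 and 323 CPM in olaparib-treated knockdown cells, 281, 278 and 255 CPM in DMSO-treated knockdown cells, 379, 395 and 379 CPM in olaparib-treated control cells and 353, 349 and 365 CPM in DMSO-treated control cells. The libraries of DMSO-treated knockdown cells were the lowest: ATF4 fell by 0.39 with knockdown in DMSO (adjusted p = 4.21e-06) and rose by 0.32 with olaparib in knockdown cells (adjusted p = 3.00e-05), and with olaparib in control cells it was not called (0.11, adjusted p = 0.0637). That missing call is near the threshold: ATF4 was called there without the filter on low counts (adjusted p = 0.0420), with only these groups fitted (0.0193), without knockdown with DMSO 3 (0.0398) and without knockdown with olaparib 3 (0.0492). The difference between the arms was not called for ATF4 (0.20, edgeR adjusted p 0.0560 to 0.184 with 1 library left out). Whether its level has a part in that of the synthetases was not tested. GCN1, a partner of the kinase GCN2, was not called without control with DMSO 1, 2 or 3, control with olaparib 1 or 2, knockdown with DMSO 1 or 2 or knockdown with olaparib 2, and 1 gene of the list was called higher with knockdown in olaparib without knockdown with olaparib 1.

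Among 14 tested enzymes of amino acid synthesis and one-carbon metabolism, 7 fell and none rose with knockdown in DMSO (median -0.14), 9 rose and 2 fell with olaparib in knockdown cells (0.28), 7 rose and 2 fell with olaparib in control cells (0.17), and 4 rose and 2 fell with knockdown in olaparib (-0.03). The interaction was called for 6, all above 0, with a median of 0.21. ASNS, asparagine synthetase, had 249, 271 and 277 CPM in olaparib-treated knockdown cells and 169.9, 162 and 163 CPM in DMSO-treated knockdown cells, against 259, 276 and 284 CPM in olaparib-treated control cells and 237, 229.6 and 229 CPM in DMSO-treated control cells. It rose by 0.69 in knockdown cells and by 0.24 in control cells, and the difference of 0.45 passed the test (adjusted p = 0.00121). PSAT1, an enzyme of serine synthesis, differed by 0.47 (adjusted p = 0.000757). The count of 6 was 3 to 7 when 1 library was left out, and moved by more than 1.5 times without control with olaparib 1, knockdown with DMSO 2 or knockdown with olaparib 2.

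Of 12 partners of the synthetases, 4 fell with knockdown in DMSO (median -0.15), 5 rose and 1 fell with olaparib in knockdown cells (0.12), 3 rose and 2 fell with olaparib in control cells (0.02), and 3 fell with knockdown in olaparib (-0.02), a count that was as low as 1 and changed most without control with olaparib 3 or knockdown with olaparib 2. Of all tested genes, 15.2% were called lower with knockdown in DMSO and 19.3% with knockdown in olaparib. With olaparib 24.1% were called higher and 23.9% lower in knockdown cells, and 23.6% higher and 23.2% lower in control cells. XPOT, the export receptor of tRNA, had 201, 213 and 224 CPM in olaparib-treated knockdown cells and 189, 186 and 190.2 CPM in DMSO-treated knockdown cells, against 209, 212 and 222 CPM in olaparib-treated control cells and 254, 258 and 244 CPM in DMSO-treated control cells. It fell with olaparib in control cells and rose in knockdown cells, with a difference of 0.41 (adjusted p = 0.00199). Of 10 tested cytosolic elongation and termination factors, 5 rose with olaparib in control cells (median 0.17) and 5 rose and 2 fell in knockdown cells (0.18), while with knockdown 1 rose and 2 fell in DMSO (-0.09) and 4 fell in olaparib (-0.11). The 2 that fell in DMSO numbered 1 to 4 with 1 library left out (control with DMSO 1 or 3, knockdown with DMSO 1, 2 or 3, knockdown with olaparib 3). EEF2, the translocase, rose by 0.46 in olaparib-treated control cells (adjusted p = 9.96e-07).

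Of 19 mitochondrial translation factors and tRNA modifiers, 5 fell and 1 rose with olaparib in control cells (median -0.10), 4 rose and 3 fell with olaparib in knockdown cells (0.01), 6 fell with knockdown in DMSO (-0.15), and 4 fell and 1 rose with knockdown in olaparib (-0.08). Of all tested genes, 23.2% fell and 23.6% rose with olaparib in control cells, and 23.9% fell and 24.1% rose in knockdown cells. With knockdown 15.2% fell in DMSO, and 19.3% fell and 19% rose in olaparib. The 3 that fell in knockdown cells numbered 1 to 5 with 1 library left out, changing by more than 1.5 times without control with olaparib 2, knockdown with DMSO 1, knockdown with olaparib 1 or knockdown with olaparib 3, and the 5 that fell in control cells numbered 3 without control with olaparib 2. The 4 that fell with knockdown in olaparib numbered as few as 2, changing without control with olaparib 2 or knockdown with olaparib 2.

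In the authors' deposited table of their own comparisons, the same numbers of synthetase genes were past a false discovery rate of 0.05 in each direction, 15 with olaparib in control cells, 21 in knockdown cells, 13 with knockdown in DMSO, 6 with knockdown in olaparib and 5 for the interaction, and all of these were the genes called here. Both analyses start from the same counts.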

How the data were processed

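Raw counts per gene, whole numbers for 12 libraries, were deposited by the authors with an identifier, symbol and gene length, per the file headers. Their table of log2 fold changes and false discovery rates (an adjusted p-value) was also deposited, per the file headers, and was read for comparison only. Per the submitters' processing notes, base calls went through bcl2fastq 2.20.0.422; the sources used here do not give an aligner, counter, build or strand setting. Entries without a symbol (51, holding 0.00223% to 0.00311% of counts) were left out. Genes above 1 CPM in at least 3 libraries (12118) were fitted in edgeR 4.0.16 (R 4.3.3) with TMM factors and a robust quasi-likelihood model of the 4 groups over all 12 libraries, and the model was tested on simulated data. Benjamini-Hochberg adjustment ran over all genes tested, and genes were called below 0.05. SEs come from the F statistic. RPKM divides CPM by the authors' gene length.

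Members and lists were chosen with earlier results of these data known. Values in every library are given for up to 4 cytosolic or dual and 2 mitochondrial called members with the largest change per comparison, and for WARS, GARS and KARS; HARS was added after its values were seen. Up to 4 genes of each list could be named. Alternatives were RLE size factors, no filter, DESeq2 1.42.0, fitting only the groups compared, a replicate block, and leaving out each library.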

Additional observations from a re-analysis of the deposited data

Results flagged for a closer look

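For 5 synthetase genes the olaparib effect differed between knockdown and control cells by the test of the difference itself. On the log2 scale the difference was 0.40 for IARS, 0.31 for LARS, 0.29 for EPRS, 0.28 for NARS and 0.43 for NARS2. In each case the log2 fold change with olaparib, not the level, was higher in knockdown cells than in control cells. The calls of EPRS, NARS and NARS2 were lost without some libraries.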

How the results depend on the processing

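Under RLE size factors, no filter on low counts, DESeq2 1.42.0, the fit of only the groups compared and a replicate block, the counts of members called in each class and the difference between the class medians held their direction and stayed within 1.5 times or 1 SD between replicates (0.041), except that with only the groups compared the mitochondrial genes that fell with knockdown in olaparib numbered 0. That fit cannot be made for the interaction. Replicate numbers did not pair the libraries (2 of 18 correlations of same-numbered deviations were over 0.1, lowest -0.27, highest 0.20); with the replicate block no count of members by compartment changed by over 1.5 times, while the cytosolic and dual genes outside the described ATF4 targets that fell with knockdown in olaparib numbered 2 in place of 1, as they did with no filter on low counts. Among the lists, the mitochondrial translation factors and tRNA modifiers that fell with olaparib in knockdown cells numbered 1 in place of 3 with no filter or with only the groups compared, those that rose with olaparib in control cells 2 in place of 1 with only the groups compared, and those that rose with knockdown in olaparib 2 in place of 1 with the block. With only the groups compared, GCN1 was not called with knockdown in DMSO and 1 elongation or termination factor fell there in place of 2. In the interaction, 1 gene of the ATF4 list was called lower with no filter in place of 0, and 2 elongation or termination factors with DESeq2 in place of 1. With 1 library left out, the cytosolic and dual members called higher were 2 to 5 in the interaction and 1 to 3 with knockdown in olaparib. The mitochondrial members called higher were 0 to 1 in the interaction, in knockdown in DMSO and in knockdown in olaparib; those called lower were 1 to 2 with knockdown in DMSO and 0 to 1 with knockdown in olaparib. The cytosolic minus mitochondrial median was 0.13 to 0.22 with olaparib in control cells, 0.28 to 0.38 in knockdown cells, -0.14 to -0.055 with knockdown in olaparib and 0.073 to 0.16 in the interaction; the cause was not tested. No called value changed sign; WARS, not called with knockdown in olaparib (-0.02), was at 0.02 without knockdown with olaparib 1. Depth limits CARS most, at 23 to 87 counts per library, and the mitochondrial genes had 109 to 8174 counts per library.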

Other observations

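TRMU, which adds sulfur to the wobble uridine of several mitochondrial tRNAs, had 6.92, 6.01 and 5.32 CPM in olaparib-treated knockdown cells, against 12.1, 14.5 and 13.7 CPM in DMSO-treated knockdown cells, and 5.21, 5.09 and 5.03 CPM in olaparib-treated control cells, against 13.7, 12.0 and 14.0 CPM in DMSO-treated control cells. No olaparib library reached a DMSO library of its arm. TRMU fell by 1.15 on the log2 scale in knockdown cells (SE 0.11, edgeR adjusted p = 6.91e-08) and by 1.37 in control cells (SE 0.12, adjusted p = 1.86e-08), and the difference between the arms was not called (0.22, adjusted p = 0.424).

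GTPBP3, which acts on the same wobble uridine, moved with the knockdown instead. It had 15.8, 13.8 and 12.8 CPM in olaparib-treated knockdown cells, against 22.8, 21.1 and 21.1 CPM in olaparib-treated control cells, and 13.3, 13.2 and 13.4 CPM in DMSO-treated knockdown cells, against 23.6, 23.9 and 24.0 CPM in DMSO-treated control cells. It fell by 0.62 in olaparib (SE 0.080, edgeR adjusted p = 5.91e-06) and by 0.84 in DMSO (SE 0.081, adjusted p = 1.58e-07), and with olaparib it was not called in either arm.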
